A study of Sus scrofa with 16 samples.

Results

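Lymphotoxin alpha (LTA), interleukin 1 alpha (IL1A), interleukin 17A (IL17A) and the type I interferon genes IFNA1 and IFN-DELTA-1 are the 5 cytokine genes described here, each measured by 1 row of a table of 20736 rows. They were chosen by gene symbol in the platform annotation, which names 178 rows standing for 175 genes. Earlier results of these data were known when the 5 genes were chosen. The samples were liver, longissimus muscle (skeletal muscle in the labels), uterine endothelium and brain stem (brain in the array titles) of 4 gilts, which are young female pigs, at about 165 days of age. Per gilt, 4 arrays with 2 dyes, Cy3 and Cy5, formed a closed loop through the 4 tissues, which gave 16 arrays. The gilt was the replicate, and no treatment or genotype was compared.

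Cytokines are secreted signals of immune cells and stressed tissue. LTA belongs to the tumour necrosis factor family and is made chiefly by activated lymphocytes. IL17A is the signature product of a class of helper T cells, and IL1A is an alarm signal held in many cells and released on damage. Type I interferons are induced by viral infection and switch on antiviral genes through a shared receptor. Interferon delta is a subfamily known in pigs for expression in the trophoblast of early pregnancy. All 5 genes matched the RefSeq gene table of Sscrofa11.1 by gene identifier and by accession. In the order of that table LTA lay directly before TNF and LTB, IL1A directly after IL1B, and IL17A directly before IL17F. IFNA1 and IFN-DELTA-1 lay in 1 run of interferon genes from IFNE to IFNB1 that held 32 genes named as interferons, 12 of them alpha, 11 delta and 6 omega. The probes were not compared with these paralogs, so a signal of IFNA1 or IFN-DELTA-1 is uncertain as to the family member it measured.

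Values are log ratios whose base was inferred to be 2, and each tissue value was set against the average of the 4 tissues in the same gilt. A tissue value is therefore a difference and not a level, and values of different genes give no order of abundance. Cy5 was taken as the numerator, a likely but unstated direction. With it, 5 of the 6 hepatocyte markers measured (CRP, PROC, UOX, MBL2 and CYP7A1) and the myogenic factor MYOD1 were highest in liver and muscle, respectively. These genes served to choose the direction and are no independent evidence of it, and the slow myosin gene MYH7 was not highest in muscle. If Cy3 were the numerator, all directions given here would be opposite. No spot intensities were used, so whether a gene was detected above background in a tissue is unknown. Because whole tissue was extracted, fewer cells of a type and less RNA per cell cannot be told apart.

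The 5 genes differed among the 4 tissues in 5 of 5 cases (limma F test), where 61.2% of all rows did. Because the 5 genes were chosen with earlier results known, shares of all rows are given here and below for scale only. These shares do not test the genes as a set. The F call was lost for IFN-DELTA-1 without gilt 3 (limma adjusted p = 0.0555) and for IL17A with tissues centred on 336 rows that end successive runs of the table (adjusted p = 0.0564). LTA, IFNA1 and IL17A were highest in brain stem, as were 9.7% of all rows, and IL1A was highest in liver (7.1% of rows) and lowest in brain stem (8.14% of rows). IFN-DELTA-1 was higher in brain stem than in liver and muscle, but 1 gilt departed from the other 3. The ranges between the highest and lowest tissue mean were 1.78 for LTA, 1.69 for IL1A, 1.39 for IFNA1, 1.27 for IFN-DELTA-1 and 0.52 for IL17A, and 92.2%, 91.5%, 88.1%, 86.7% and 63% of all rows had a smaller range, in that order.

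**Figure D1:**
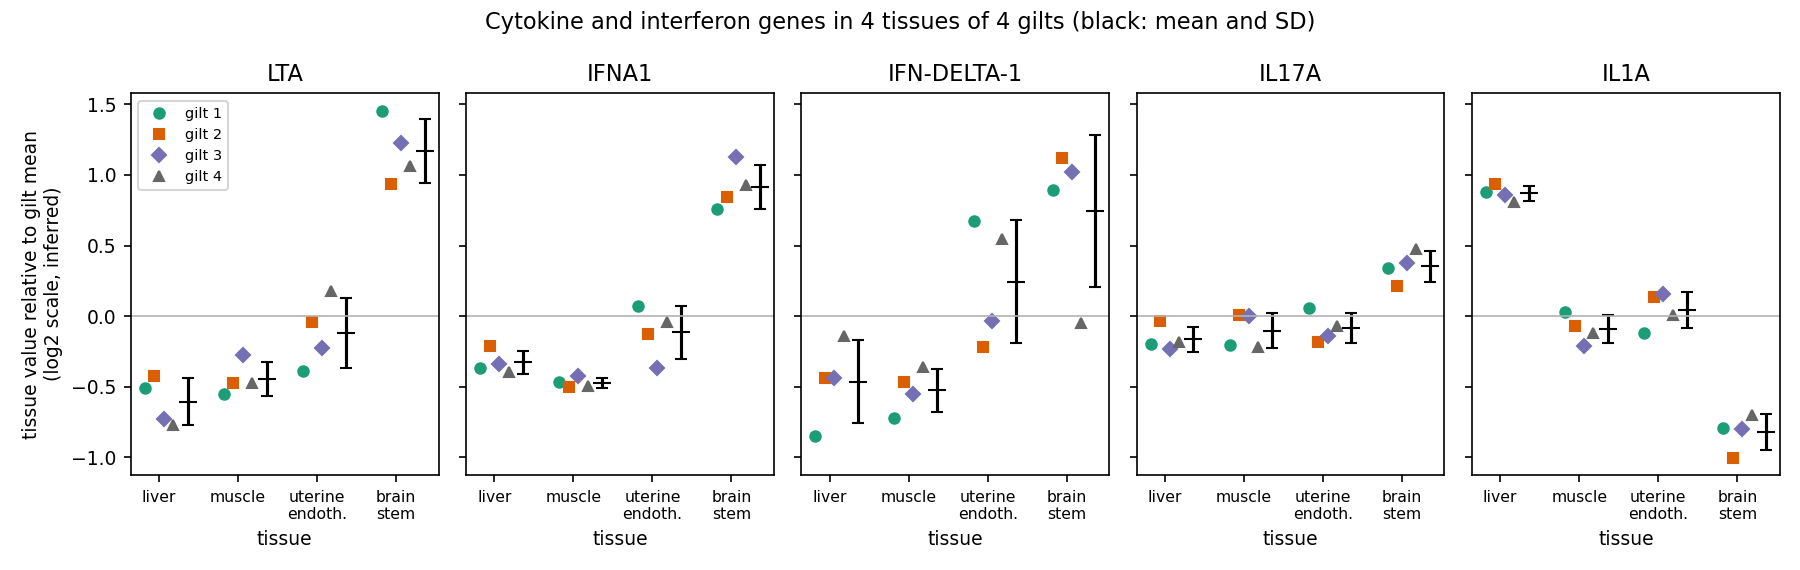
Tissue values of the 5 genes, relative to the mean of each gilt (vertical axis, log2 scale), for 4 tissues (horizontal axis); symbols are gilts and black marks give the mean and SD over 4 gilts. Brain stem of gilt 4 stands at -0.05 for IFN-DELTA-1, whereas the other 3 gilts lie between 0.90 and 1.12.

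LTA stood at 1.45, 0.93, 1.23 and 1.06 in brain stem of gilts 1 to 4. In uterine endothelium it was -0.39, -0.04, -0.23 and 0.18, in muscle -0.55, -0.47, -0.27 and -0.47, and in liver -0.51, -0.42, -0.73 and -0.77. The lowest brain stem value thus lay above the highest value of any other tissue, a separation met by 3 of the 5 genes (LTA, IFNA1 and IL17A) and by 10% of all rows. Brain stem exceeded liver by 1.78 ± 0.15 (SE; limma adjusted p = 2.9e-06), which is 3.42-fold on a base of 2. It exceeded muscle by 1.61 ± 0.15 (adjusted p = 9.3e-06) and uterine endothelium by 1.29 ± 0.15 (adjusted p = 5.2e-05), each in 4 of 4 gilts. Below brain stem, uterine endothelium exceeded liver by 0.49 (adjusted p = 0.032), a call lost without gilt 2 (0.52), 3 (0.48) or 4 (0.33). The other neighbours in the order did not pass: uterine endothelium minus muscle was 0.33 (95% interval 0.0030 to 0.65, adjusted p = 0.13) and liver minus muscle -0.16 (-0.48 to 0.16, adjusted p = 0.50).

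IFNA1 encodes an interferon alpha. In brain stem it stood at 0.76, 0.84, 1.13 and 0.93 in gilts 1 to 4. Muscle had the narrowest spread, with -0.47, -0.50, -0.42 and -0.50, while liver had -0.36, -0.21, -0.34 and -0.39 and uterine endothelium 0.07, -0.13, -0.37 and -0.04. No brain stem value overlapped with another tissue. The gene was higher in brain stem than in muscle by 1.39 ± 0.10 (SE; limma adjusted p = 2.2e-06), than in liver by 1.24 ± 0.10 (adjusted p = 2.7e-06) and than in uterine endothelium by 1.03 ± 0.10 (adjusted p = 2.1e-05). Uterine endothelium exceeded muscle by 0.36 (adjusted p = 0.024), a difference that did not pass without gilt 1 (0.30), 2 (0.35) or 4 (0.32). Between uterine endothelium and liver the difference was 0.21 (95% interval -0.01 to 0.44) and between liver and muscle 0.14 (-0.08 to 0.37), and neither passed.

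Of the 5 genes IFN-DELTA-1 had the largest SE. Brain stem gave 0.90, 1.12, 1.02 and -0.05, and uterine endothelium 0.68, -0.22, -0.03 and 0.55. Liver was low at -0.85, -0.44, -0.44 and -0.14, as was muscle at -0.72, -0.47, -0.55 and -0.36. In gilt 4 uterine endothelium was the highest tissue, and brain stem lay 0.09 above liver. Its SD in brain stem, 0.54, compares with 0.16 for IFNA1. Over the 4 gilts brain stem exceeded muscle by 1.27 ± 0.28 (SE; limma adjusted p = 0.0040) and liver by 1.21 ± 0.28 (adjusted p = 0.0053), the latter with 1.13 and an adjusted p of 0.050, no longer called, without gilt 3. Brain stem did not pass against uterine endothelium (0.50, 95% interval -0.11 to 1.12, adjusted p = 0.17). Without gilt 4 this difference was 0.87 and passed (adjusted p = 0.021), and those from liver and muscle were 1.585 and 1.593. Uterine endothelium minus liver was 0.71 (adjusted p = 0.093), and uterine endothelium minus muscle 0.77 (adjusted p = 0.065), the latter passing in a fit of the array ratios with no replicate block (0.88, adjusted p = 0.013).

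The interleukins moved in opposite directions. IL17A stood at 0.34, 0.21, 0.38 and 0.47 in brain stem of gilts 1 to 4. Elsewhere it lay between -0.23 and 0.06: liver had -0.20, -0.04, -0.23 and -0.19, muscle -0.20, 0.01, -0.0018 and -0.22, and uterine endothelium 0.06, -0.19, -0.14 and -0.07. All 4 brain stem values were above the 12 others. Brain stem exceeded liver by 0.52 ± 0.09 (SE; limma adjusted p = 0.00065), muscle by 0.46 ± 0.09 (adjusted p = 0.0015) and uterine endothelium by 0.44 ± 0.09 (adjusted p = 0.0021). The 3 other tissues were not separated, with differences between -0.06 and 0.08 and adjusted p of at least 0.56.

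IL1A had its high values in another tissue. In liver it stood at 0.88, 0.94, 0.86 and 0.81. Brain stem gave -0.79, -1.002, -0.80 and -0.70, while muscle had 0.03, -0.07, -0.21 and -0.12 and uterine endothelium -0.12, 0.14, 0.15 and 0.01. Liver values lay above all 12 others (7.79% of rows) and brain stem values below all 12 others (7.95% of rows). Liver exceeded brain stem by 1.69 ± 0.09 (SE; limma adjusted p = 9.7e-08), muscle by 0.96 ± 0.09 (adjusted p = 6.6e-06) and uterine endothelium by 0.83 ± 0.09 (adjusted p = 3.5e-05). Brain stem was below muscle by 0.73 (a brain stem minus muscle difference of -0.73, adjusted p = 5.6e-05) and differed from uterine endothelium by -0.87 (adjusted p = 2.1e-05). Uterine endothelium minus muscle was 0.14 (95% interval -0.05 to 0.33, adjusted p = 0.27).

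**Figure D2:**
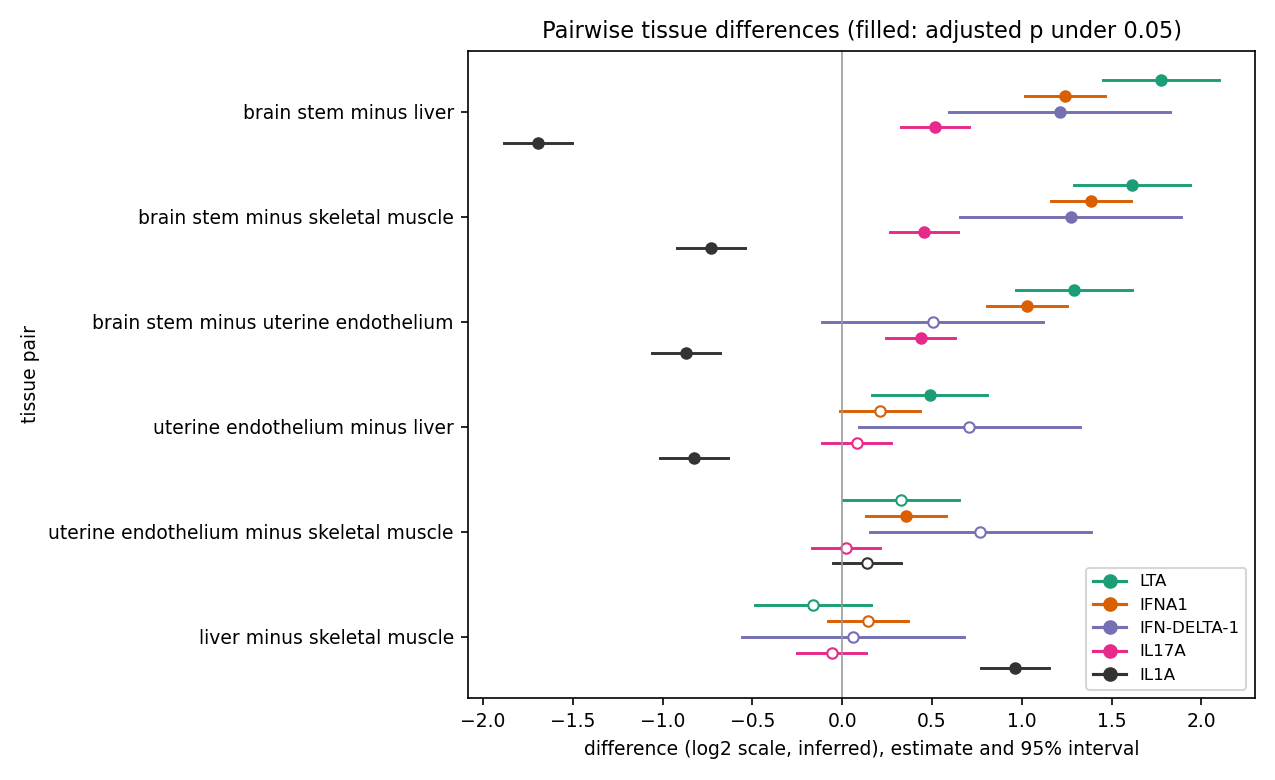
Differences between tissues (horizontal axis, log2 scale) for the 6 tissue pairs (vertical axis), as limma estimates with 95% intervals and filled points where the adjusted p was under 0.05. In the 3 pairs with brain stem IL1A lies between -1.69 and -0.73 and the other genes lie between 0.44 and 1.78.

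Set against all rows, brain stem was higher than liver for 4 of the 5 genes (16.5% of rows) and lower for IL1A (21.1%). The same 4 genes, LTA, IFNA1, IFN-DELTA-1 and IL17A, were higher in brain stem than in muscle (17.7%), and IL1A again was lower (21.4%). Brain stem was higher than uterine endothelium for LTA, IFNA1 and IL17A (19.1%) and lower for IL1A (22.7%). Among the other tissues fewer differences passed. Uterine endothelium exceeded liver for LTA (11.8%) and liver exceeded it for IL1A (12.1%), while uterine endothelium exceeded muscle for IFNA1 (13.1%) and muscle exceeded it for 0 genes (13.3%). Liver was above muscle for IL1A alone (13.3%), and muscle was above liver for 0 genes (12.8%). The comparisons with brain stem share its values and are not independent. At an unadjusted limma p under 0.05, uterine endothelium exceeded muscle for 3 of the 5 genes and liver for 2 of the 5. Muscle exceeded uterine endothelium for 0 of the 5 genes and liver for 0 of the 5 at that threshold. The share of all rows at the unadjusted threshold was not counted.

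The arrays behind these values are few for each pair. Brain stem and liver met directly on 3 arrays, of gilts 1, 3 and 4, with brain stem in Cy5 on 2 of them. There the ratio of brain stem to liver was 1.83, 2.19 and 2.25 for LTA, and 0.86, 1.42 and 1.501 for IFNA1. For IFN-DELTA-1 it was 1.88, 1.56 and 0.0065, and for IL17A 0.56, 0.74 and 0.70. IL1A gave -1.71, -2.03 and -1.64 on the same arrays. Gilt 4 was thus low for IFN-DELTA-1 on the direct array, where LTA, IFNA1 and IL17A were not.

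Brain stem and muscle met on 2 arrays, of gilts 2 and 3, both with brain stem in Cy3. IL17A gave 0.12 and 0.26 there, a mean of 0.19 beside the 0.46 solved over 4 gilts, and IL1A gave -0.70 and -0.22, a mean of -0.46 beside -0.73. The direct ratios were 1.399 and 1.27 for LTA, 1.39 and 1.60 for IFNA1, and 1.33 and 1.46 for IFN-DELTA-1. Their means were 1.33, 1.49 and 1.398, beside 1.61, 1.39 and 1.27 solved over 4 gilts. These comparisons of means set 2 gilts against 4. In gilts 2 and 3 alone the solved differences were 0.202 and 0.379 for IL17A, and -0.93 and -0.59 for IL1A. They were 1.41 and 1.503 for LTA, 1.34 and 1.55 for IFNA1, and 1.59 and 1.57 for IFN-DELTA-1. Within these gilts the direct ratios were thus smaller in size than the solved differences for all genes but IFNA1, in the same direction.

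Brain stem and uterine endothelium also met on 3 arrays, of gilts 1, 2 and 4. LTA gave 1.98, 0.98 and 0.46, a wide spread on 1 side of 0, while IFNA1 gave 0.95, 0.92 and 0.79. IFN-DELTA-1 gave 0.09, 1.60 and -0.52, so that its arrays disagreed in sign. IL17A gave 0.27, 0.48 and 0.50, and IL1A gave -0.64, -1.37 and -0.57.

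A loop of 4 ratios leaves 1 residual, the mean ratio around the loop, which is 0 without a dye effect or error. For LTA it was 0.13, 0.01, 0.23 and 0.42 in gilts 1 to 4. For IL1A it was 0.04, -0.23, -0.38 and -0.13. The largest absolute values for the other genes were 0.26 for IFNA1, 0.26 for IFN-DELTA-1 and 0.12 for IL17A. Over all rows and gilts the median absolute value was 0.0668 and the 95th percentile 0.28, so gilt 4 for LTA and gilt 3 for IL1A were above that percentile. A residual shared by all arrays of a loop cancels in the solved values when it comes from the dyes.

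**Figure D3:**
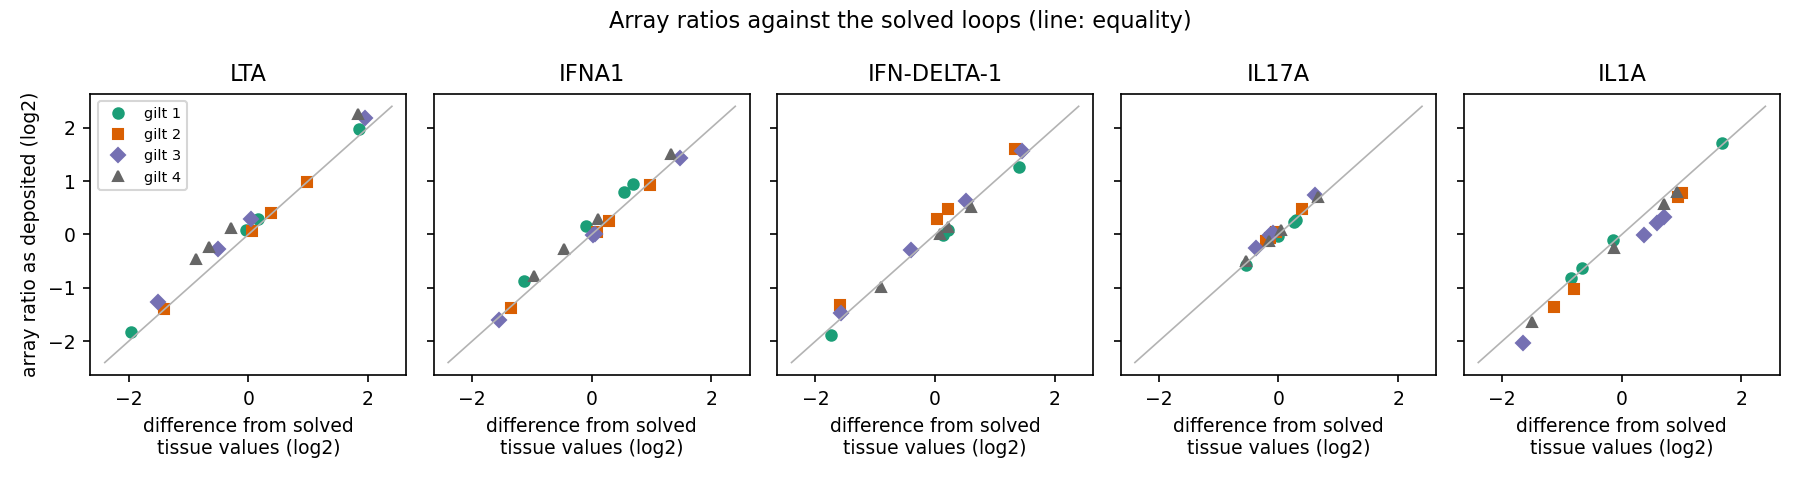
Each array's deposited ratio (vertical axis, Cy5 over Cy3, log2) against the difference of the solved tissue values for the same pair (horizontal axis, log2), with the line of equality; the vertical distance is the residual of the loop, up to 0.42 for LTA in gilt 4. The 4 arrays of a gilt have the same distance from the line by construction.

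Over the 16 tissue values, which share arrays within a gilt, LTA and IFNA1 had a Pearson r of 0.94 and IFNA1 and IL17A one of 0.91. IFN-DELTA-1 was less like IFNA1 (r = 0.79, and 0.92 over the 12 values without gilt 4). Of the other named genes those most like LTA were IFNA1, the milk protein gene LALBA (r = 0.92) and the cartilage collagen COL10A1 (r = 0.90). IFNA1 was most like PGLYRP2 (0.95), which encodes a peptidoglycan-cleaving amidase, the sperm tail gene ODF1 (0.94) and the activin receptor ACVR2B (0.94). COL10A1 (0.97), ODF1 (0.95) and PGLYRP2 (0.94) were the nearest to IL17A. Nearest to IFN-DELTA-1 were the chemokine receptor CXCR6 (0.90), the pregnancy-associated glycoprotein PAG6 (0.87) and ACVR2B (0.82). IL1A was most like the prolactin receptor PRLR (0.93), RPN2 (0.87), a subunit of the oligosaccharyl transferase, and QDPR (0.86). An r of 0.9 was reached by 2.37% of all rows with LTA, 3.46% with IFNA1, 2.69% with IL17A, 0.873% with IL1A and 0.217% with IFN-DELTA-1. The value of COL10A1 with IL17A was reached by 7 rows, that of CXCR6 with IFN-DELTA-1 by 45 and that of PRLR with IL1A by 84. That of IFNA1 with LTA was reached by 157 rows and that of PGLYRP2 with IFNA1 by 243.

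Of a list of 64 cytokine and interferon genes, 9 were measured under a name, the 5 genes above among them. The other 4 had small values. IL21, a T cell cytokine, stood at 0.17 ± 0.07 (SD, n = 4) in brain stem and passed the F test (adjusted p = 0.0171), and IFNB1, the interferon beta gene at the end of the same gene run, was highest in muscle at 0.14 ± 0.08. IL2 and LIF did not pass, with tissue means between -0.09 and 0.06. In brain stem IFNB1 stood at -0.02 ± 0.04, against 0.91 ± 0.16 for IFNA1. Among 3 further cytokine genes picked from the probe names, TNFSF8, the CD30 ligand, was at -0.28 ± 0.10 in brain stem and 0.26 ± 0.04 in liver, the skin chemokine CCL27 was highest in muscle at 0.25 ± 0.15, and TNFSF4 did not pass.

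Receptors and downstream genes showed smaller or other differences. Of 57 cytokine, interferon and chemokine receptor genes 7 were measured, and receptors for LTA, IL1A, IL17A or type I interferon were not among the named rows. The F test was passed by 5 of the 7, beside 61.2% of all rows. Only 1 of the 7, CXCR6, passed as higher in brain stem than in liver (16.5% of rows), by 0.47 (adjusted p = 0.011). The median of brain stem minus liver over the 7 was 0.15, and 0.0054 over all rows. Of 45 interferon response and antigen presentation genes 3 were measured. PSME1, an activator of the immunoproteasome, stood at -1.30 ± 0.41 in brain stem and 1.16 ± 0.19 in uterine endothelium, and PSMB8, one of its catalytic subunits, at -0.40 ± 0.33 and 0.75 ± 0.19. Both were highest in uterine endothelium. The third, PDCD1LG2, a ligand of the T cell receptor PD-1, passed the F test but was highest in no tissue, with 0.08 in liver, 0.05 in uterine endothelium, 0.05 in brain stem and -0.18 in muscle. Antiviral genes such as MX1 and OAS1 were not among the named rows. Of 37 pattern recognition and signalling genes 4 were measured, and 3 were higher in brain stem than in liver, as were 16.5% of all rows: PGLYRP2 by 0.77, PGLYRP1 by 0.69 and the Toll-like receptor TLR10 by 0.54. JUN, a subunit of the factor AP-1, did not differ past the threshold between these tissues (0.20).

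**Figure D4:**
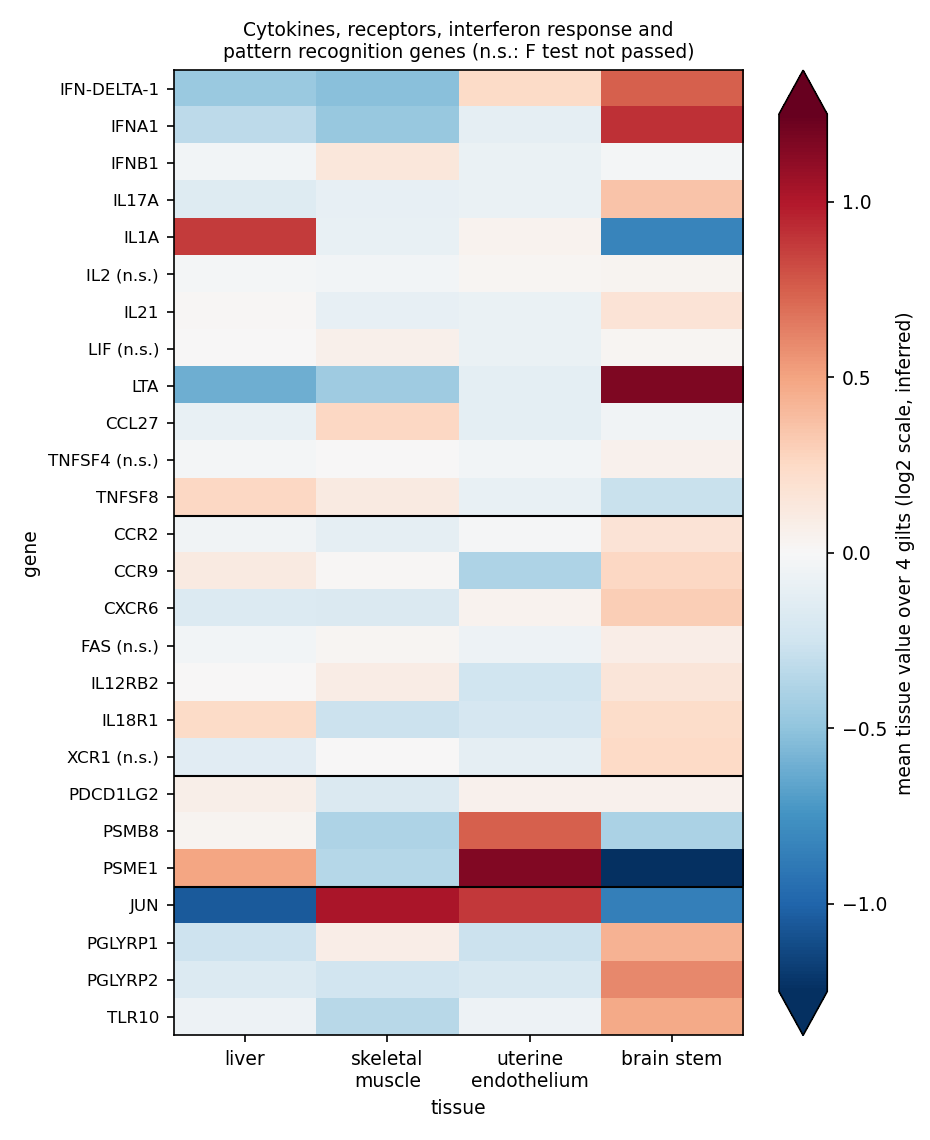
Mean tissue values over 4 gilts (colour, log2 scale; values beyond the ends of the scale take its end colours) for named cytokines, receptors, interferon response genes and pattern recognition genes (vertical axis) in 4 tissues (horizontal axis); n.s. marks genes that did not pass the F test. LTA (1.17) and IFNA1 (0.91) have the highest brain stem means and PSME1 (-1.30) the lowest.

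Markers of the cells that make these cytokines were sparse. Of 33 lymphocyte markers only CD4 was named, and it stood lower in brain stem than in liver (-0.25, adjusted p = 0.029), while LTA and IL17A were higher there. Of 6 further leukocyte genes picked from the probe names, 2 were higher in brain stem than in liver (16.5% of all rows) and 1 was lower (21.1%). LY49, a natural killer cell receptor, was highest in brain stem at 0.29 and exceeded liver by 0.33 (adjusted p = 0.017), and the platelet integrin ITGA2B exceeded it by 0.16 (adjusted p = 0.043). CD1.1, a lipid antigen-presenting molecule, was lower (-0.20, adjusted p = 0.028), and TYROBP, MADCAM1 and ULBP1 did not pass between these tissues. Of 27 markers of macrophages, microglia and granulocytes 3 were named. The ficolin FCN1, in humans a product of monocytes, was highest in liver at 1.25 ± 0.18 and lay between -0.47 and -0.38 in the other tissues. CYBA was highest in uterine endothelium at 0.81 ± 0.17. The macrophage lectin SIGLEC1 was higher in brain stem than in liver by 0.22 (adjusted p = 0.032), though it did not pass the F test (adjusted p = 0.053). The part of such cells in the cytokine values was not tested. Of 21 neuronal and glial markers 4 were named. CEND1 was highest in brain stem at 0.22 ± 0.08, and GAD2 was above liver by 0.33. The glycine receptor subunit GLRB was lowest in brain stem at -0.26 ± 0.11, below liver by a difference of -0.41, and GAD1 did not pass. Of 23 endothelial and uterine markers 3 were named, and only CAV1 was highest in uterine endothelium, at 1.09 ± 0.35. The oxytocin receptor OXTR was highest in muscle at 0.35 and stood at -0.18 in uterine endothelium, and the folate receptor FOLR1 was highest in no tissue, with 1.15 in liver and 1.05 in uterine endothelium. The endothelial markers PECAM1, VWF and CDH5 were not among the named rows.

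Position in the table was examined because neighbouring rows can share signal. The row just after LTA, which has no gene name here, stood at 1.08 ± 0.57 (SD, n = 4) in brain stem and -0.38 ± 0.21 in liver, and correlated with LTA at r = 0.82 over the 16 values, a value that 4.6% of adjacent row pairs reached. The row before LTA, PSMB8, stood at -0.40 in brain stem. IFNA1 followed IL2, which was near 0 in all tissues, and preceded the antimicrobial peptide gene PR39, at -0.26 in brain stem. IFN-DELTA-1 followed CCR9, at 0.26 in brain stem and -0.38 in uterine endothelium. IL17A and IL1A were adjacent rows and ran opposite to each other (r = -0.78). The row after IL1A, the histamine receptor HRH4, stood at 0.86 ± 0.39 in liver, close to the 0.87 ± 0.05 of IL1A, but at -0.31 in brain stem against -0.82. With the part predicted from the preceding row removed, the calls in brain stem and the calls of IL1A were kept. LTA no longer passed between uterine endothelium and liver (0.40, limma adjusted p = 0.070). For LTA and IL1A the preceding row ran the other way between brain stem and liver. Removing its part enlarged brain stem minus liver to 1.83 and -1.76, so these kept calls do not test shared signal. The part shared with a following row was not removed, and the part of shared signal was not tested further.

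**Figure D5:**
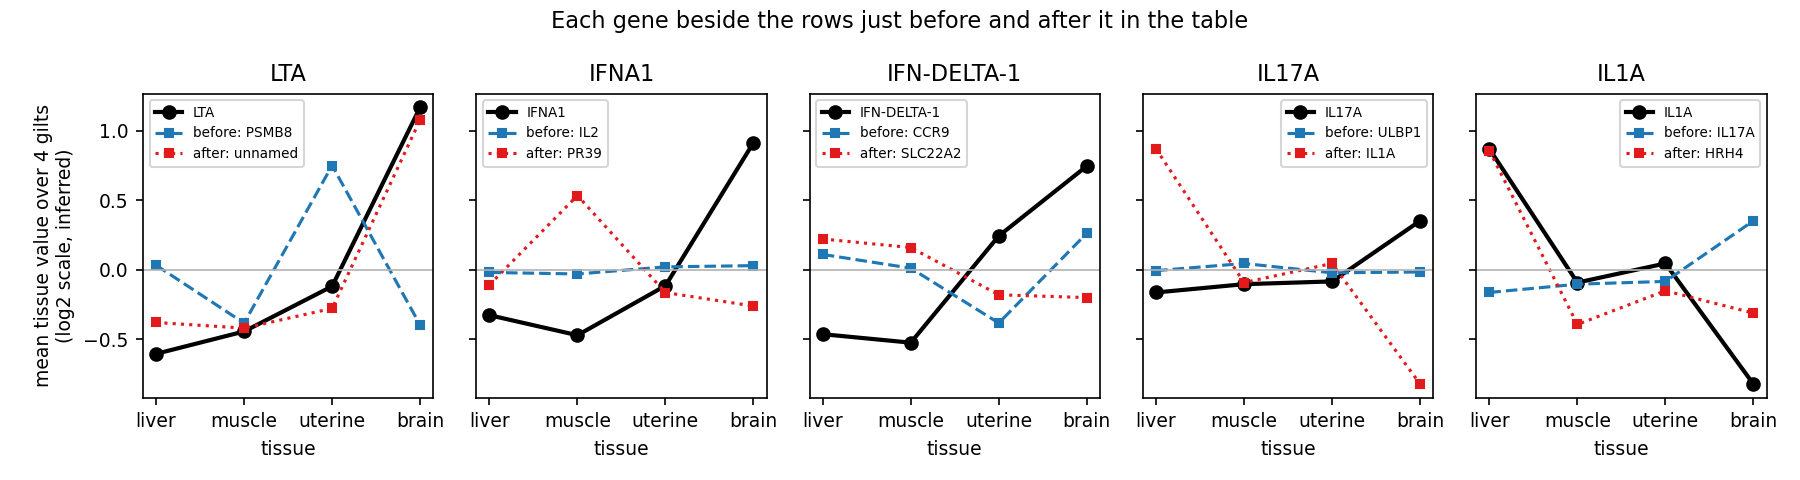
Mean tissue values over 4 gilts (vertical axis, log2 scale) of each gene (black) and of the rows directly before (blue) and after it (red) in the table, for 4 tissues (horizontal axis). The row after LTA reaches 1.08 in brain stem beside 1.17 for LTA, while both rows beside IFNA1 lie at or below 0.03 there.

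The last 7 rows of each of 48 successive runs of 432 rows, 336 in all, equal in number the rows beyond the 20400 oligonucleotides of the design text. What they hold is not given in the sources used here. Their median tissue value was 0.11 in brain stem (5th to 95th percentile 0.05 to 0.19), -0.06 in liver, -0.02 in muscle and -0.03 in uterine endothelium. Of these rows 13 (3.87%) were highest in brain stem, 1 of them by at least the 0.44 of IL17A. With tissues centred on these rows IL17A was no longer above uterine endothelium past the threshold (0.30, limma adjusted p = 0.059). LTA and IFNA1 kept their 3 calls in brain stem with this centring.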

How the data were processed

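The authors' deposited values were 1 log ratio per row and array, read as log2; no source used here gives the base, scanner, background correction, normalization or direction. The arrays had medians from -0.01 to 0.01, so they were not centred further. Their SDs ran from 0.52 to 1.00. The arrays were still not scaled in the main fit, and scaling was 1 of the alternatives. Dye and tissue of each channel were taken from the labels. Each loop was solved by least squares into 4 tissue values, and all 20736 rows were fitted with limma 3.58.1 (R 4.3.3), gilt as fixed block and 9 residual degrees of freedom. Labels tie a block to 1 animal. The F test and 6 two-sided contrasts were adjusted over all rows (Benjamini-Hochberg, threshold 0.05). A gene is highest in a tissue when it passed against all other tissues. The fit was also run on simulated arrays with independent noise and no dye, gilt or neighbouring-row effects. That run cannot speak to such effects, and its outcome is not given here.

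Rows carry 1 symbol or none, and the 5 genes and the gene lists were chosen with earlier results of these data known. Named genes are the 5, the 3 most correlated named genes for each, measured list members and adjacent rows. Alternatives covered centring, scaling, blocks, dye, moderation, row filters, the preceding row and each gilt left out. Depth is unknown without intensities, and the number of gilts limits precision. No sequence was used.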

Additional observations from a re-analysis of the deposited data

Results flagged for a closer look

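Among 50 values of the 5 genes (20 tissue values and 30 differences), 2 had a single gilt standing apart, judged by the share of the full range taken up by the gap between that gilt and its closest neighbour. By chance about 1 group in 20 does so. The difference between brain stem and muscle of IFN-DELTA-1 was 1.62, 1.59 and 1.57 in gilts 1, 2 and 3 but 0.31 in gilt 4, a share of 0.962. The difference between liver and muscle of IFNA1 was 0.10, 0.08 and 0.10 in gilts 1, 3 and 4 but 0.29 in gilt 2, a share of 0.904, and it did not pass the test.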

How the results depend on the processing

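Of 30 differences of the 5 genes 18 passed. Of all 20736 rows, 4969 (uterine endothelium and liver) to 8662 (brain stem and uterine endothelium) passed per pair. The tissue pairs of a gene share tissue values, so the 30 differences are not independent. Under 14 alternatives for each of the 30 differences, 404 of 420 values kept their side of the threshold. Of the rest, 11 called ones were lost and 5 were gained, none in the opposite direction. Besides the values above, the call of LTA in uterine endothelium minus liver was lost with scaled arrays (0.47) and with the preceding row's part removed (0.40), and the difference was 0.33 to 0.61 without 1 gilt. IFNA1 in uterine endothelium minus muscle lost its call with the block-end centring (0.37, limma adjusted p = 0.082), a setting chosen after the data were seen. That difference was 0.30 to 0.46 without 1 gilt. IFN-DELTA-1 without 1 gilt ranged from 1.03 to 1.59 for brain stem minus liver and from 0.22 to 0.87 for brain stem minus uterine endothelium. Its uterine endothelium minus muscle difference was gained with scaled arrays (0.81). It was also gained with no replicate block, with or without a dye term, or a random one (0.88). IL17A in brain stem minus uterine endothelium lost its call with the block-end centring (0.30). With the sign turned, 1 gene was highest and 3 lowest in brain stem, and 0 highest and 1 lowest in liver. Each gilt left out lowered the number of rows that differed, and without 1 gilt these numbered 3103 to 4487 for uterine endothelium and muscle, 5611 to 7849 for brain stem and uterine endothelium, and 2785 to 3978 for uterine endothelium and liver. The lowest of each was reached without gilt 3, and without gilt 2 uterine endothelium and muscle differed in 3436 rows.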
